A study of Mus musculus with 24 samples.

Results

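Bone marrow-derived macrophages (BMDMs) were used to measure how small interfering RNA (siRNA) against Ctbp2 altered the response of messenger RNA to lipopolysaccharide (LPS). The contrast was an interaction on log2(TPM + 1): the LPS response with Ctbp2 siRNA minus the LPS response with control siRNA. TPM is a length-corrected measure of a transcript's share of the RNA in a library, so it keeps no sequencing depth, and counting error per library is unknown. The contrast used 12 of the 24 RNA-seq libraries of the series, in 4 groups of 3 that carry the replicate numbers 1, 3 and 4. These groups were Ctbp2 siRNA with LPS, control siRNA with LPS, Ctbp2 siRNA with vehicle and control siRNA with vehicle. In addition, 6 libraries from BMDMs with Ctbp1 siRNA, the related gene, served as a second comparator and to set LPS response classes.

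All of these cells came from marrow of male C57BL6/N mice aged 6 to 12 weeks, were matured in medium with L929 cell supernatant, and received an siRNA. LPS was given at 100 ng/ml for 4 h, and vehicle was PBS. The labels call the libraries biological triplicates without naming separate animals or cultures, so p-values measure the spread between these samples. The control siRNA groups carry a duplex of another sequence, so a response to the Ctbp2 duplex itself cannot be told apart from a response to loss of Ctbp2 mRNA. No protein was measured, and the library kit does not mark strand. In such bulk RNA, fewer cells of a kind and less RNA per cell cannot be told apart.

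CtBP proteins are nuclear co-repressors that do not bind DNA themselves. They are brought to genes by DNA-binding partners and recruit enzymes that remove activating histone marks. LPS is sensed by Toll-like receptor 4, which switches on inflammatory genes through NF-kB and, through IRF3 and secreted interferon beta, a later set of interferon-stimulated genes. In macrophages that later set encodes antiviral proteins such as the IFIT family and immunity-related GTPases, many of them driven through interferon-stimulated response elements in their promoters.

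Each of the 12 libraries had between 11548 and 12259 genes at 1 TPM or more, 4.10% to 5.22% of its TPM in mitochondrially encoded genes, and a Spearman correlation of at least 0.984 with every library of its own group. Macrophage markers summed to between 13430 and 15780 TPM. Of the other cell types, neutrophil markers summed to 62.7 to 171.6 TPM, and lymphocyte (7 of 11 markers listed in the table), stromal, mast and red cell markers (1 of 7 listed) each to less than 10 TPM per library. Dendritic cell markers (7 of 8 listed) summed to 158.2 to 171.7 TPM with Ctbp2 siRNA against 146.1 to 147.0 TPM with control siRNA in LPS, and to 133.8 to 138.8 TPM with Ctbp2 siRNA against 122.7 to 124.0 TPM with control siRNA in vehicle, with no overlap. Almost all of this sum was Itgax, which macrophages also express, and Flt3 and Cd209a were at or near 0. The part of these cells in the results was not tested. Control LPS replicate 4 stood apart from the other LPS libraries in having a weaker LPS response, and results are given with and without it.

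The genes whose LPS response was called lower are mostly interferon-stimulated. Promoters of 4 of them are shown as examples that carry, or lack, the core letters of the interferon-stimulated response element. The motif searched, on both strands, was GAAA followed by any 2 bases and a second GAAA. Each window is the 250 bases before a transcription start in RefSeq (GRCm38.p6), read in the direction of the gene, with matches in capitals. They lie at chr19:34583279-34583528 (plus strand) for Ifit3, chr11:48871421-48871670 (minus strand) for Irgm1, chr11:49064213-49064462 (minus strand) for Tgtp2 and chr19:34550444-34550693 (plus strand) for Ifit2.
Ifit3: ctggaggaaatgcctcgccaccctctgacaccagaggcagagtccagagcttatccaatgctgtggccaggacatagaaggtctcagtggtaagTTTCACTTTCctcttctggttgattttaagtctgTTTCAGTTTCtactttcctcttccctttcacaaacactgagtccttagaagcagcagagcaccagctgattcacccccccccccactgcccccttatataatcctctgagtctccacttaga
Irgm1: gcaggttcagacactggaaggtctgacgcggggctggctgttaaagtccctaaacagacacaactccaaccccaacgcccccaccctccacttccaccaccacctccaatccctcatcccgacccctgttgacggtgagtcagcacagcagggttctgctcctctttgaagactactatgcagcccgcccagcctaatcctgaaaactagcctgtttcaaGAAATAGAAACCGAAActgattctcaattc
Tgtp2: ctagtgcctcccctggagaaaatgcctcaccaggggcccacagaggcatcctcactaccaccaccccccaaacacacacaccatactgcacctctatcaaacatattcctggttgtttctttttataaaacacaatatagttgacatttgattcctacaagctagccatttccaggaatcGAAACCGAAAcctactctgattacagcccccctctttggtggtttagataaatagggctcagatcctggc
Ifit2: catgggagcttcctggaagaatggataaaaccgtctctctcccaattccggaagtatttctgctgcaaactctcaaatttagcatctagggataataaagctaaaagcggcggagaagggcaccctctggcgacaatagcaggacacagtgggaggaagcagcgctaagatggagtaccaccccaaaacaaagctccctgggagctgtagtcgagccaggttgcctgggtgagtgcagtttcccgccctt

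Ifit3 held 2 matches, TTTCACTTTC at -156 to -147 and TTTCAGTTTC at -122 to -113 from its start, both on the opposite strand. Irgm1 held 2 overlapping matches within bases -30 to -15, and Tgtp2 held 1 at -70 to -61. Neither of the 2 starts that RefSeq lists for Ifit2 had these letters in its window, which says nothing of elements farther away or of other spelling. The window of Xaf1, which is not printed, held 0 matches as well. Over the whole RefSeq windows, which run on to 50 bases past the start, 3 of the 5 genes called lower that had a window (of 7 called lower) held a match. For comparison, the share was 4.35% of 6272 tested genes with a window and 62.9% (22 of 35) of the tested interferon-response genes with a window.

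Ctbp2 mRNA itself, the siRNA target, was at 13.8, 10.4 and 12.3 TPM with Ctbp2 siRNA and LPS, against 37.4, 36.9 and 40.3 TPM with control siRNA and LPS. In vehicle it was at 20.4, 16.9 and 17.2 TPM with Ctbp2 siRNA, against 52.0, 51.6 and 54.2 TPM with control siRNA. All 6 Ctbp2 siRNA libraries lay below all 6 control libraries. The reduction was -1.59 in LPS (log2, limma adjusted p = 2.15e-08) and -1.49 in vehicle (adjusted p = 5.69e-08), and the interaction was -0.10 ± 0.12 (SE, adjusted p = 0.922). Ctbp2 mRNA was lower in LPS than in vehicle with either siRNA, and the siRNA effect did not pass the test for a difference between conditions. The related gene Ctbp1 averaged 114 ± 2.82 TPM with Ctbp2 siRNA against 123 ± 7.33 TPM with control siRNA in LPS, and 139.8 ± 10.2 TPM with Ctbp2 siRNA against 138 ± 7.12 TPM with control siRNA in vehicle (SD, n = 3), with adjusted p of 0.411 and 0.95 in limma.

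With Ctbp2 siRNA, 6 genes with known roles gained less from LPS, or lost more, than with control siRNA: Ifit2, Tgtp2, Ifit3, Irgm1, Xaf1 and Tor3a. A single gene, Egr2, had the opposite sign. Of 7918 genes tested, whose TPM averaged 10 or more across the 18 BMDM libraries, 8 were called at a limma adjusted p under 0.05, which is 0.101%. Of these, 7 were lower (0.0884%, with the predicted gene Gm13464 as the remaining one) and 1 was higher (0.0126%). At an unadjusted p under 0.05 there were 654 genes. The median interaction of all tested genes was -0.02, and the median 95% interval reached 0.228 to either side. That interval is not adjusted for the 7918 genes tested, so a call needed a larger change than that in most genes. The smallest change called was 0.48 (Egr2), and Gadd45a at 0.56 was not called. Smaller changes could thus be missed, and a low count of calls does not show that changes were absent.

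The LPS response itself was broad. With Ctbp2 siRNA it altered 6230 genes (78.7%), 1857 higher (23.5%) and 4373 lower (55.2%). With control siRNA it altered 6053 genes (76.4%), 1847 higher (23.3%) and 4206 lower (53.1%). TPM is a share, and the median LPS response of all tested genes was -0.23 with Ctbp2 siRNA and -0.21 with control siRNA, against -0.00038 and -0.0073 once libraries were rescaled by median-of-ratios. With that scaling 2908 genes were higher and 2888 lower with Ctbp2 siRNA, and 2853 and 2829 with control siRNA. A gene's fold change with LPS should therefore be read against those medians. The interaction median moved by far less, to 0.007.

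Ifit2 encodes an interferon-induced antiviral protein with tetratricopeptide repeats. With Ctbp2 siRNA it stood at 99.7, 99.3 and 116 TPM in LPS and at 52.4, 52.1 and 62.6 TPM in vehicle. With control siRNA it stood at 156, 168 and 124 TPM in LPS and at 27.3, 27.1 and 36.1 TPM in vehicle. The Ctbp2 siRNA libraries were thus all higher in vehicle and all lower in LPS, without overlap in either condition. LPS raised Ifit2 by 1.87-fold with Ctbp2 siRNA and by 4.83-fold with control siRNA (folds are of TPM + 1), an interaction of -1.37 ± 0.19 (log2, SE, 95% interval -1.78 to -0.96, adjusted p = 0.00891). The change at rest passed the test on its own (0.87, adjusted p = 0.00663) and the change in LPS did not (-0.50, adjusted p = 0.0571). With the replicate number as a block the change in LPS passed (adjusted p = 0.0413). After median-of-ratios scaling it did not (-0.44, limma adjusted p = 0.113), nor in the LPS libraries fitted alone. In TPM the gain with LPS was 49.2 with Ctbp2 siRNA and 119 with control siRNA.

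Ifit3, a partner of other IFIT proteins, showed the same crossing. With Ctbp2 siRNA it was at 76.2, 71.9 and 84.1 TPM in LPS and at 78.9, 82.3 and 101 TPM in vehicle. With control siRNA it was at 99.5, 110.0 and 97.5 TPM in LPS and at 39.4, 41.1 and 59.3 TPM in vehicle. The siRNA groups did not overlap in either condition. Within Ctbp2 siRNA the LPS libraries overlapped the vehicle libraries, with a fold of 0.891 (limma adjusted p = 0.347), whereas LPS raised Ifit3 by 2.20-fold with control siRNA. The interaction was -1.31 ± 0.22 (95% interval -1.78 to -0.83, adjusted p = 0.033). At rest the siRNA effect was 0.91 (adjusted p = 0.0117), and in LPS it was -0.40 (adjusted p = 0.178).

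Tgtp2, an immunity-related GTPase induced by interferon, was at 31.4, 28.0 and 34.9 TPM in LPS and 14.8, 15.7 and 18.9 TPM in vehicle with Ctbp2 siRNA. With control siRNA it was at 43.5, 40.6 and 41.2 TPM in LPS and 7.65, 7.76 and 8.82 TPM in vehicle. Again the groups were separate in both conditions and in opposite order. LPS raised it by 1.86-fold with Ctbp2 siRNA and 4.72-fold with control siRNA, an interaction of -1.34 ± 0.22 (95% interval -1.81 to -0.87, limma adjusted p = 0.0257). Of that value the effect at rest was the larger component, with 0.94 in vehicle (adjusted p = 0.00961) against -0.40 in LPS (adjusted p = 0.17). Tgtp2 has a closely related neighbour, Tgtp1, and reads that fit both cannot be assigned with certainty.

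**Figure D1:**
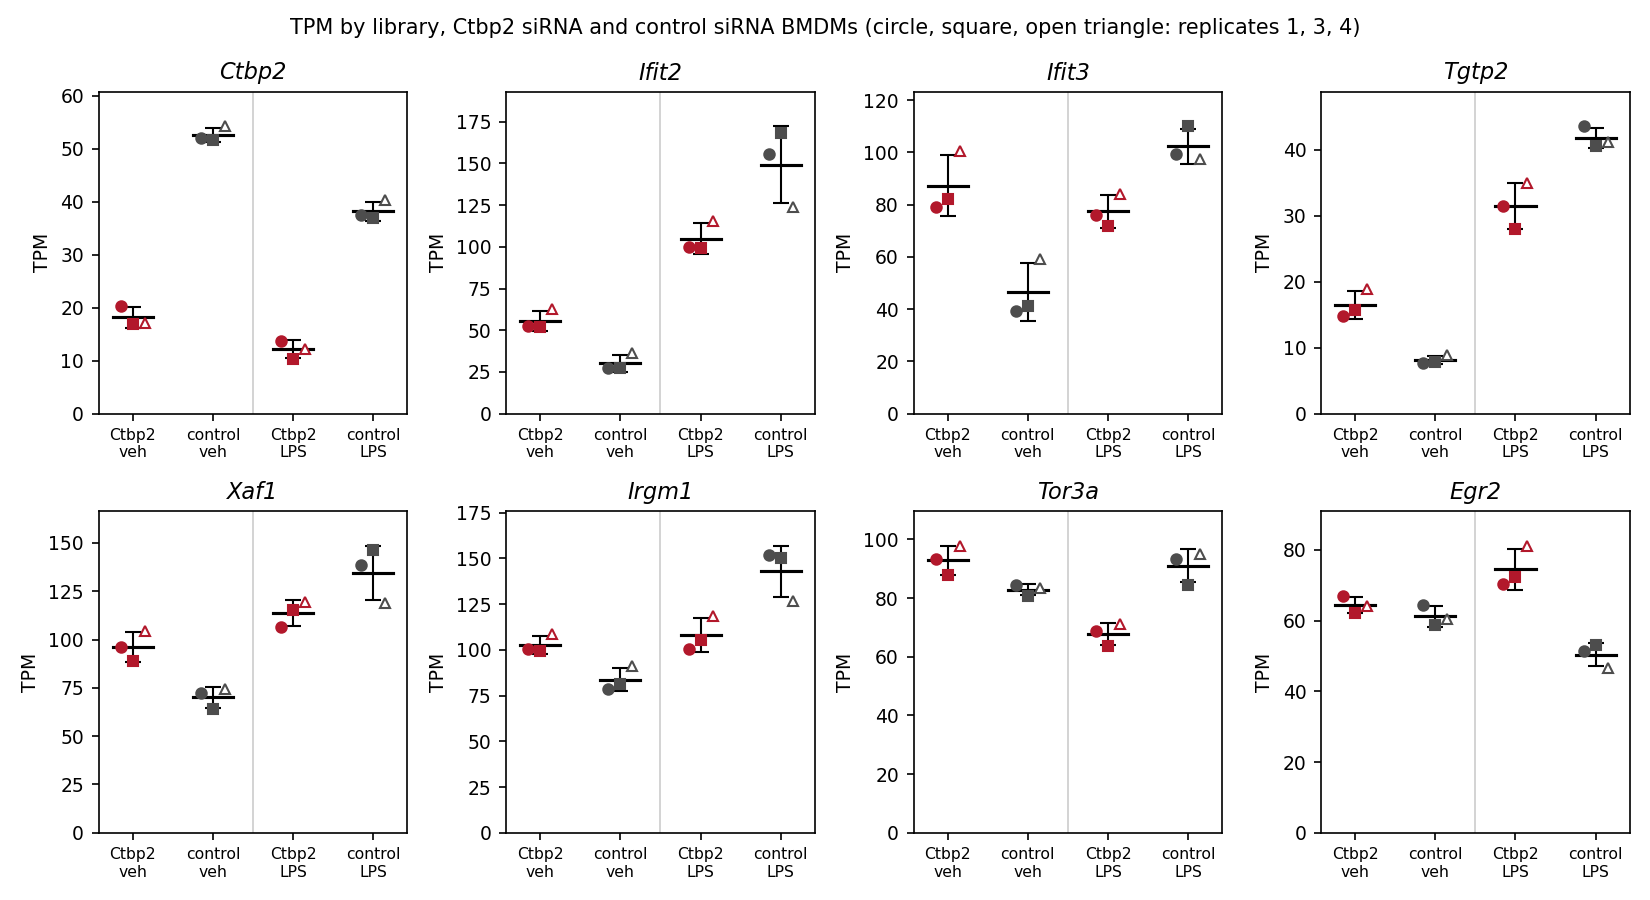
Level in TPM of Ctbp2 and of the 7 named genes called for the interaction, in each of the 12 libraries by siRNA and condition. Bars are means with SD (n = 3), and circles, squares and open triangles mark replicates 1, 3 and 4. Ifit2, Ifit3, Tgtp2 and Tor3a are higher in Ctbp2 siRNA than in control siRNA in vehicle and lower in LPS. In LPS Tor3a averages 67.8 against 91.0 TPM, and Egr2 is higher with 74.6 against 50.4 TPM.

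Xaf1, a pro-apoptotic interferon-induced gene, had a smaller change of the same form. It was at 106, 115 and 119 TPM in LPS and 96.2, 88.7 and 104 TPM in vehicle with Ctbp2 siRNA. With control siRNA it was at 138, 146 and 119 TPM in LPS and 72.2, 63.9 and 74.2 TPM in vehicle. The groups overlapped in LPS, through control replicate 4, and were separate in vehicle. LPS raised it by 1.18-fold with Ctbp2 siRNA and by 1.9-fold with control siRNA, an interaction of -0.69 ± 0.11 (95% interval -0.93 to -0.45, limma adjusted p = 0.0236), with 0.45 in vehicle (adjusted p = 0.0109) and -0.24 in LPS (adjusted p = 0.112).

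In Irgm1 and Tor3a the effect of the siRNA passed the test in LPS and not in vehicle. Irgm1, a regulator of other immunity-related GTPases and of autophagy, was at 100.4, 105 and 118 TPM in LPS with Ctbp2 siRNA, against 152, 150.3 and 127 TPM with control siRNA. In vehicle it was at 100.3, 99.4 and 109 TPM with Ctbp2 siRNA, against 78.8, 81.4 and 91.0 TPM with control siRNA. Its LPS fold was 1.05 with Ctbp2 siRNA and 1.70 with control siRNA, and the interaction was -0.69 ± 0.12 (95% interval -0.95 to -0.43, limma adjusted p = 0.0333). Of the separate siRNA effects, the one in LPS passed the test (-0.40, adjusted p = 0.0207) and the one in vehicle did not (0.29, adjusted p = 0.123), although neither pair of groups overlapped. The call in LPS was lost in 7 of 14 alternatives, and after median-of-ratios scaling the 2 effects were of similar size, at -0.34 in LPS (adjusted p = 0.0593) and 0.32 in vehicle.

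Tor3a encodes a torsin-family ATPase that is induced by interferon. It was at 68.7, 63.5 and 71.1 TPM in LPS with Ctbp2 siRNA, against 93.4, 84.5 and 95.1 TPM with control siRNA. In vehicle it was at 93.2, 87.7 and 97.7 TPM with Ctbp2 siRNA, against 84.3, 80.8 and 83.5 TPM with control siRNA. The groups were separate in both conditions, with Ctbp2 siRNA lower in LPS and higher in vehicle. The interaction was -0.58 ± 0.08 (95% interval -0.75 to -0.41, limma adjusted p = 0.00891), with -0.42 in LPS (adjusted p = 0.000722) and 0.16 in vehicle (adjusted p = 0.186). With LPS, Tor3a fell with Ctbp2 siRNA (0.733-fold, adjusted p = 1.12e-06) and rose with control siRNA (1.10-fold, adjusted p = 0.0394), and both directions were the same after median-of-ratios scaling (-0.21 and 0.34 on the log2 scale). The authors' deposited table gives log2 LPS responses for Tor3a of -0.09 with Ctbp2 siRNA and 0.46 with control siRNA.

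Egr2, a zinc-finger transcription factor of the immediate early class, was the 1 gene called higher. It was at 70.3, 72.3 and 81.2 TPM in LPS with Ctbp2 siRNA, against 51.4, 53.0 and 46.7 TPM with control siRNA. In vehicle it was at 66.8, 62.2 and 64.2 TPM with Ctbp2 siRNA, against 64.5, 58.7 and 60.4 TPM with control siRNA. The LPS groups were far apart and the vehicle groups overlapped. The interaction was 0.48 ± 0.08 (95% interval 0.31 to 0.66, limma adjusted p = 0.033), and the siRNA effect was 0.56 in LPS (adjusted p = 0.000112) and 0.07 in vehicle (adjusted p = 0.648). The LPS fold was 1.15 with Ctbp2 siRNA and 0.825 with control siRNA. The fall with control siRNA was close to the median of all genes: it came to -0.07 after median-of-ratios scaling (adjusted p = 0.339), and the authors' deposited table has a log2 response of 0.05 there, against 0.57 with Ctbp2 siRNA.

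Of the next genes by unadjusted p, none passed the test. On the lower side Ifi35, an interferon-induced signalling regulator, had an interaction of -0.42 (limma adjusted p = 0.0618). On the higher side Gadd45a, a growth-arrest and DNA-damage gene, had 0.56 (adjusted p = 0.0664), the deadenylase subunit gene Cnot7 had 0.40 (adjusted p = 0.0909), and Bhlhe40, a transcriptional repressor that promotes cytokine production in macrophages, had 0.78 (adjusted p = 0.107). Bhlhe40 was at 9.28, 12.4 and 8.88 TPM in LPS with Ctbp2 siRNA, against 5.27, 6.18 and 7.49 TPM with control siRNA. Its vehicle levels were 21.1, 24.3 and 21.3 TPM with Ctbp2 siRNA, against 24.4, 27.3 and 23.8 TPM with control siRNA. Its LPS groups did not overlap, and the siRNA effect in LPS was 0.61 (adjusted p = 0.0131). Ier2, an immediate early gene, had an interaction of 0.49 (adjusted p = 0.141) and an effect in LPS of 0.61 (adjusted p = 0.000914).

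The interferon-response list was then read as a whole. It holds 49 genes, of which 46 were tested. For the interaction 5 were called lower and 0 higher, the coefficient was negative in 45 of 46, and the median was -0.45 against -0.02 for all tested genes, of which 4545 were negative and 0.0884% were called lower. After median-of-ratios scaling the list median was -0.42, with 2 called lower. Gbp5, a guanylate-binding protein, was the exception in sign, at 0.17. The list's median LPS response was 0.53 with Ctbp2 siRNA, with 28 members higher and 6 lower, where 23.5% and 55.2% of all tested genes were. With control siRNA it was 1.17, with 41 higher and 1 lower, where 23.3% and 53.1% of all tested genes were. After median-of-ratios scaling the list's median LPS response with Ctbp2 siRNA was 0.77, with 36 higher and 3 lower (2908 and 2888 of all tested genes). With control siRNA it was then 1.38, with 43 higher and 0 lower (2853 and 2829 of all tested genes).

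The lower median LPS response of this list with Ctbp2 siRNA had parts in both conditions. In vehicle, Ctbp2 siRNA against control siRNA altered 81 of all tested genes (1.02%), 40 higher (0.505%) and 41 lower (0.518%), against 63 and 29 under median-of-ratios. Of the interferon list 11 rose and 0 fell, 44 of 46 coefficients were positive, and the median was 0.30 (0.33 after median-of-ratios scaling, with 15 called higher). In LPS, 251 genes were altered (3.17%), 61 higher (0.77%) and 190 lower (2.4%), against 124 and 81 under median-of-ratios. With the replicate number as a block, which pairs these LPS libraries, 457 genes were altered (5.77%), 122 higher (1.54%) and 335 lower (4.23%). In a fit of the LPS libraries compared alone, 4 genes were called (Ctbp2, Hspa1b, Ptma and Lrrc42), so no other effect in LPS that is named here passed the test there. Of the interferon list 6 fell (Igtp, Irgm1, Irgm2, Ifi35, Eif2ak2 and Tor3a) and 0 rose, 35 coefficients were negative, and the median was -0.15. Of all 7918 tested genes 5471 were negative in LPS, with a median of -0.05, so the sign count alone sets the list little apart. With the block 9 of the list fell and 1 rose (Ifitm3). The list's median in LPS was smaller under median-of-ratios scaling, at -0.09 with 1 called lower. Of the median interaction of this list, the change at rest was thus the larger component and the change in LPS the smaller one.

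The members called in vehicle include the receptor-transporter gene Rtp4, with 0.53 (limma adjusted p = 0.00663), Ifit1, with 0.82 (adjusted p = 0.0247), and Rsad2, the antiviral enzyme viperin, with 0.78 (adjusted p = 0.0269). Their interactions were -0.54, -0.93 and -0.99, with adjusted p of 0.0909, 0.183 and 0.133, so none of these passed the test. The vehicle calls of Ifit1 and Rsad2 were lost in 5 and 7 of 14 alternatives. Ifit1 illustrates the spread. It was at 230.4, 199 and 234 TPM in LPS with Ctbp2 siRNA, against 286, 272 and 175 TPM with control siRNA. In vehicle it was at 28.5, 28.1 and 36.1 TPM with Ctbp2 siRNA, against 14.7, 16.3 and 20.5 TPM with control siRNA. The vehicle groups were separate, and the LPS groups overlapped because control replicate 4 lay below every Ctbp2 siRNA library. Isg15, the ubiquitin-like antiviral protein, had the same feature, at 581, 569 and 559 TPM in LPS with Ctbp2 siRNA against 594, 594 and 386 TPM with control siRNA.

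**Figure D2:**
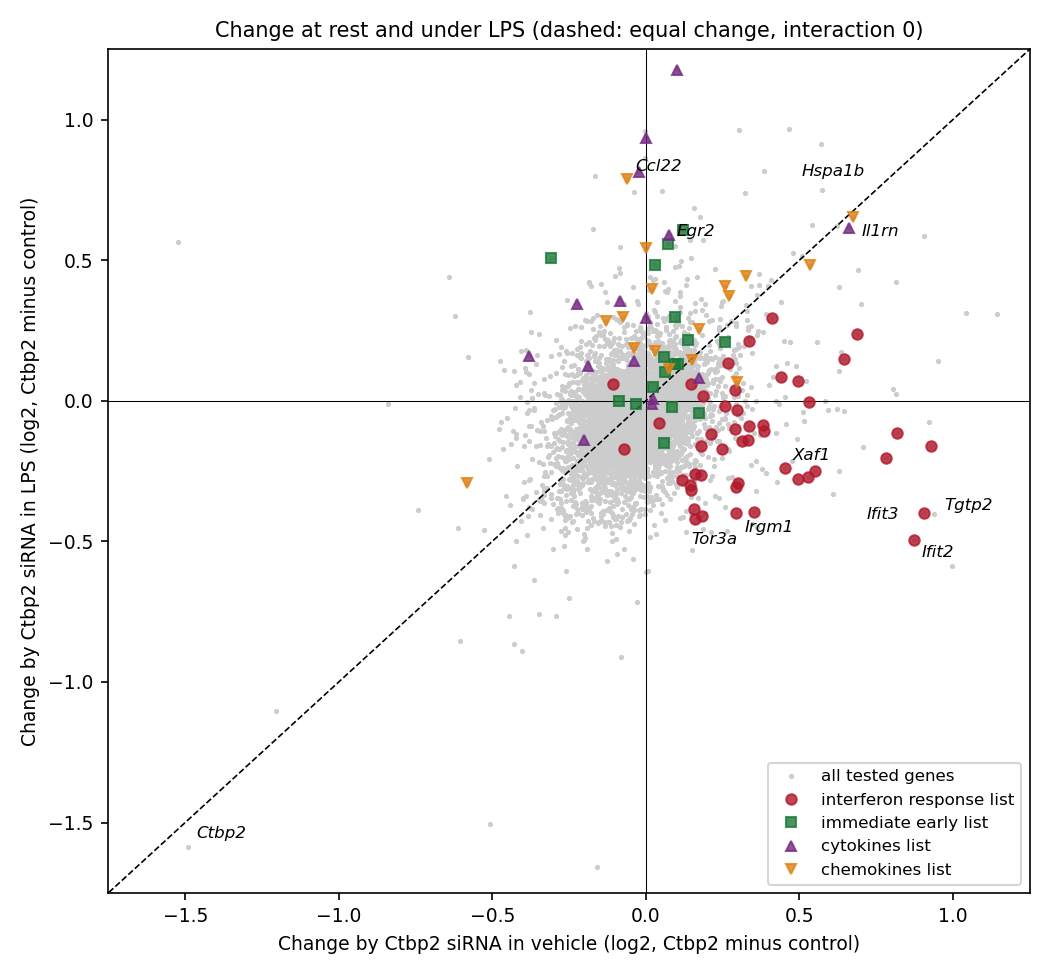
Change by Ctbp2 siRNA against control siRNA in LPS (vertical axis, log2) plotted against the change in vehicle (horizontal axis, log2) for the tested genes within the axis limits, with 17 genes outside them. Points below the dashed line of equal change have a negative interaction. Interferon-response genes (red circles) lie mostly to the right of 0 and below the line, with medians of 0.30 in vehicle and -0.15 in LPS, and Egr2 lies above it.

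Other arms of the LPS response were described in the same way. Of 15 tested cytokine genes none was called for the interaction, 11 coefficients were positive and the median was 0.31. Of 17 chemokine genes none was called, 13 were positive and the median was 0.15. Of 33 NF-kB and feedback genes none was called, 27 were positive and the median was 0.13. Of 17 immediate early genes Egr2 alone was called higher, 13 were positive and the median was 0.04, where 3373 of all 7918 tested genes were positive. In LPS alone 4 of these 17 rose with Ctbp2 siRNA (Egr2, Ier2, Fosl2 and Junb), where 0.77% of all tested genes rose. In the LPS libraries fitted alone none of the 4 passed the test, with adjusted p of 0.058 for Egr2 and 0.0758 for Ier2. Of 19 genes of antigen presentation by MHC none was called, 16 were negative and the median was -0.14, and of 24 genes of Toll-like receptor 4 signalling none was called, with a median of 0.04.

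Several cytokine values depended on 1 control library. Tnf, the inflammatory cytokine of early LPS responses, was at 5498, 5519.9 and 5234 TPM in LPS with Ctbp2 siRNA, against 4782, 4982 and 3179 TPM with control siRNA. Il6, a later inflammatory cytokine listed at 0 in all 6 vehicle libraries, was at 171, 185 and 153 TPM with Ctbp2 siRNA, against 191, 209 and 65.2 TPM with control siRNA. Control LPS replicate 4 was the lowest library for both genes. The interaction was 0.44 for Tnf (limma adjusted p = 0.408) and 0.29 for Il6 (adjusted p = 0.925). Without control LPS replicate 4 they were 0.23 (adjusted p = 0.194) and -0.24 (adjusted p = 0.635), so the Il6 value changed sign. Il12b, a subunit of IL-12 and IL-23, had 0.83 with all libraries and 0.34 without that one, and Il1a had 1.08 and 0.36.

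**Figure D3:**
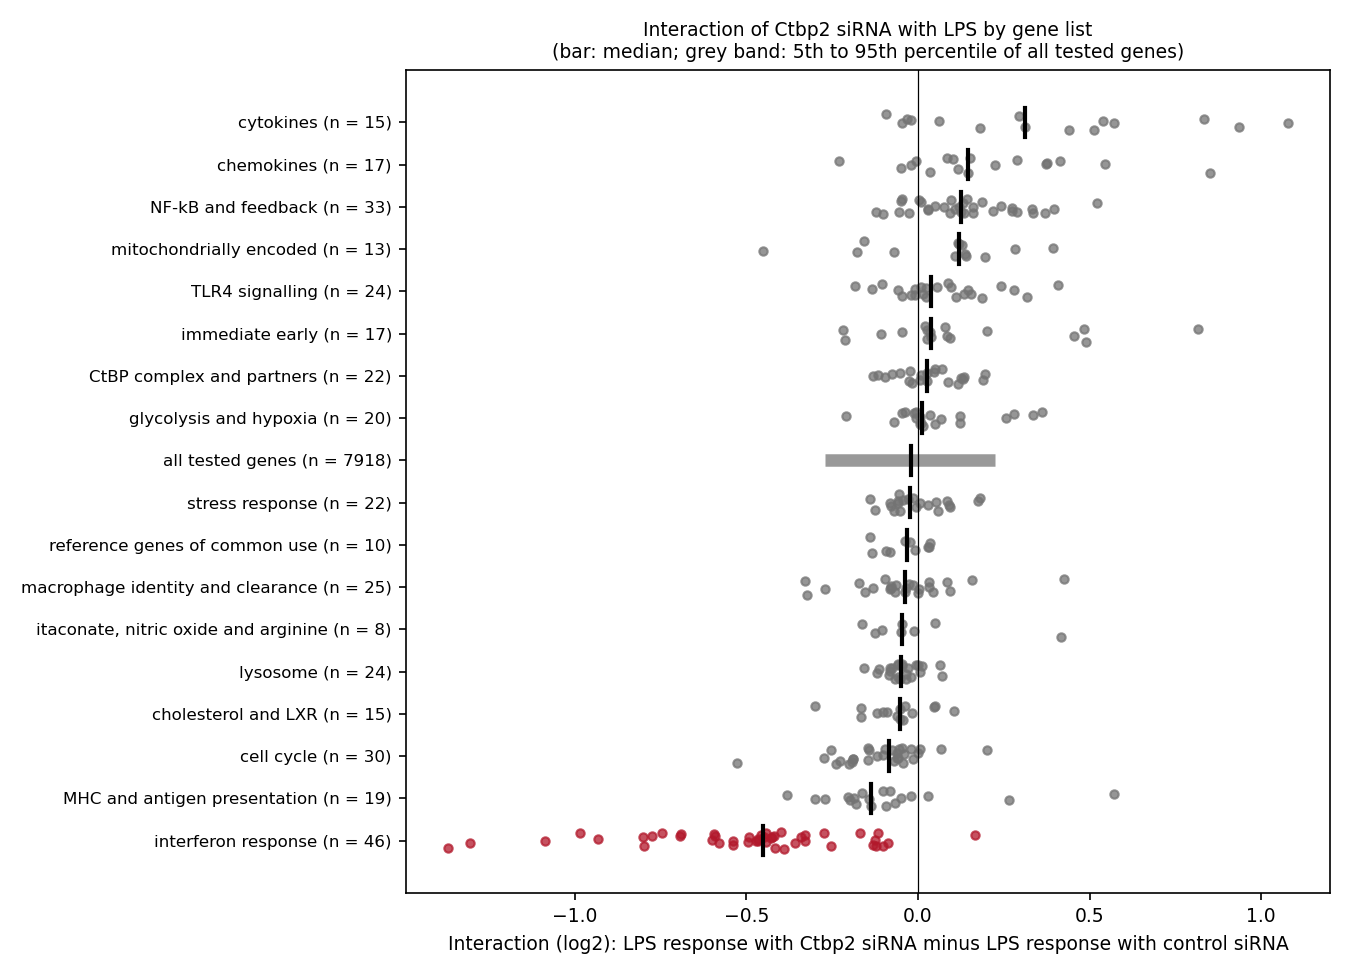
Interaction (log2, LPS response with Ctbp2 siRNA minus that with control siRNA) of every tested member of each gene list, with the list median as a bar and the 5th to 95th percentile of all tested genes as a grey band. The interferon-response list lies almost wholly below 0, with a median of -0.45, while cytokine, chemokine and NF-kB medians are 0.31, 0.15 and 0.13.

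That library was compared with the others over classes of LPS-responsive genes. In libraries with LPS, the median difference of 135 strongly LPS-induced genes from their mean in the Ctbp1 siRNA and LPS group was 0.21, 0.18 and 0.13 with Ctbp2 siRNA and 0.15, 0.20 and -0.26 with control siRNA. For 22 strongly repressed genes it was -0.20, -0.11 and -0.13 with Ctbp2 siRNA and -0.23, -0.29 and 0.28 with control siRNA. Control replicate 4, the last of each trio, thus lay on the opposite side of 0 from the other 5 LPS libraries in both classes, with a smaller rise and a smaller fall. Strong here means at least 8-fold with LPS in the Ctbp1 siRNA cells, which are outside the contrast. For the interferon list the differences in LPS were 0.01, -0.01 and 0.09 with Ctbp2 siRNA and 0.24, 0.31 and 0.01 with control siRNA, and in vehicle 0.30, 0.19 and 0.40 with Ctbp2 siRNA and -0.05, -0.11 and 0.12 with control siRNA.

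With all libraries the median interaction was 0.15 for strongly induced genes, -0.14 for strongly repressed genes and -0.43 for the 19 interferon-response genes induced at least 2-fold. Without control LPS replicate 4 these medians were 0.03, 0.08 and -0.49. The cytokine median was then 0.14 (6 negative), the chemokine median -0.04, the NF-kB median 0.04 and the interferon-list median -0.50, with all 46 coefficients negative. In LPS alone, 161 genes were then called (2.03%), 58 higher (0.733%) and 103 lower (1.3%), and the interferon median was -0.24, with 10 called lower.

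**Figure D4:**
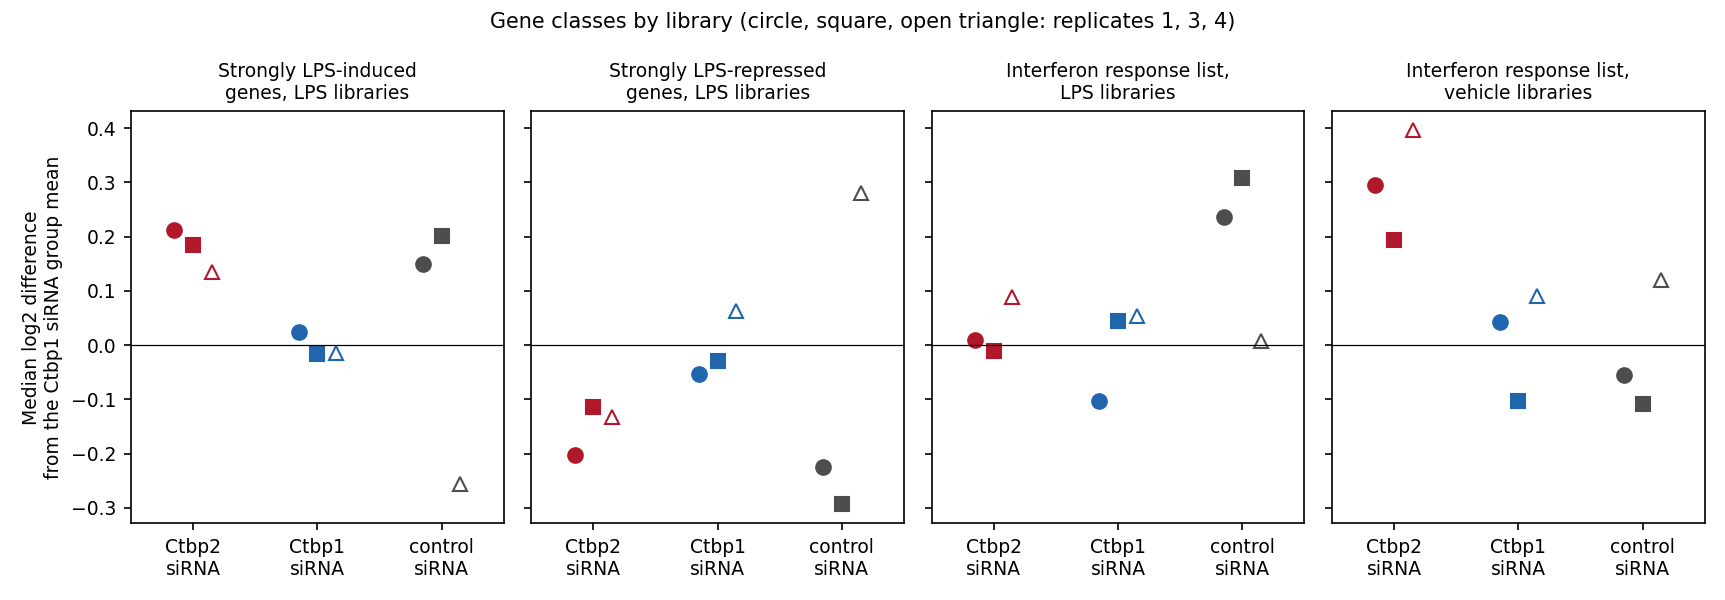
Median log2 difference of each library from the mean of the Ctbp1 siRNA group of the same condition, in 4 panels for gene classes, by siRNA and condition. Control LPS replicate 4 (open triangle) lies at -0.26 for strongly induced and 0.28 for strongly repressed genes, apart from the other LPS libraries. For the interferon list the Ctbp2 siRNA libraries are higher than control in vehicle, at 0.19 to 0.40 against -0.11 to 0.12.

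Without that library 38 genes were called for the interaction (0.48%), 32 lower (0.404%) and 6 higher (0.0758%), and the 8 genes called with all libraries were among them. The interaction was then -1.50 for Ifit2, -1.35 for Tgtp2, -1.34 for Ifit3, -0.78 for Irgm1, -0.78 for Xaf1 and -0.55 for Tor3a. Of the interferon list 18 were called lower. These included Rsad2 (-1.19, limma adjusted p = 0.0113), Ifit1 (-1.16, adjusted p = 0.0113), Ifi35 (-0.47, adjusted p = 0.0166) and Isg15 (-0.70, adjusted p = 0.0443). Further genes called lower encode the peptide transporter Tap2, the RNA-editing enzyme Adar and the ubiquitin ligase Trim25. Those called higher were Egr2 (0.43, adjusted p = 0.0288), Bhlhe40 (0.89, adjusted p = 0.0288), Gadd45a (adjusted p = 0.0495), Cnot7 (adjusted p = 0.0495), Tbc1d19 and Irf2bpl. No cytokine or chemokine gene was called. Among the genes called lower, 14 of 27 with a RefSeq window held that motif (51.9%).

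The count of 8 also moved with other libraries. It was 1 without control vehicle replicate 1, 4 without control vehicle replicate 3 and 15 without control vehicle replicate 4. It was 3 without control LPS replicate 1 and 2 without control LPS replicate 3. It was 4, 2 and 5 without Ctbp2 LPS replicates 1, 3 and 4, 10 without Ctbp2 vehicle replicate 1 and 3 without either Ctbp2 vehicle replicate 3 or 4. Of 20 alternative settings, Tor3a was lost in 1 and Ifit2 in 2, while Irgm1 was lost in 14, Ifit3 and Egr2 in 13 each, Tgtp2 in 12 and Xaf1 in 11. None of these genes changed direction in any setting.

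Against Ctbp1 siRNA, the interaction was called for 0 of 7918 genes by limma, with 731 at an unadjusted p under 0.05, and 4 (all higher) with no filter on low values. Without control LPS replicate 4, which enters this contrast through the shared estimate of the spread alone, 12 genes were called (0.152%). Ifit2, Xaf1 and Tor3a were among the lower ones, and Tnf (0.46), Il6 (0.59) and Il12b (1.01) among the higher ones. Strongly LPS-induced genes as a class had a median interaction of 0.18 against Ctbp1 siRNA. In LPS this class also lay above the Ctbp1 siRNA mean in control replicates 1 and 3 (0.15 and 0.20), and below it in replicate 4 (-0.26). The higher cytokine values here were thus not clearly particular to Ctbp2 siRNA. With all libraries the interaction against Ctbp1 siRNA was -1.0 for Ifit2, -0.95 for Ifit3, -0.90 for Tgtp2, -0.54 for Xaf1 and -0.41 for Tor3a (each with an adjusted p of 0.295). For Egr2 it was 0.32 (adjusted p = 0.338). The interferon list had 43 of 46 negative coefficients and a median of -0.30, where 5117 of all 7918 tested genes were negative with a median of -0.04. With Ctbp1 siRNA, Ifit2 was at 104, 138 and 127 TPM in LPS and 32.7, 27.9 and 35.6 TPM in vehicle. Its vehicle values lay in the range of control siRNA and below every Ctbp2 siRNA library. Its LPS values overlapped those of both Ctbp2 siRNA and control siRNA. For the interferon list in LPS, the Ctbp2 siRNA libraries lay near the Ctbp1 siRNA mean, with median differences of 0.01, -0.01 and 0.09. The level in LPS was thus not clearly particular to Ctbp2 siRNA. The interactions against Ctbp1 siRNA share the Ctbp2 siRNA libraries with the comparison against control siRNA and are not independent of it.

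**Figure D5:**
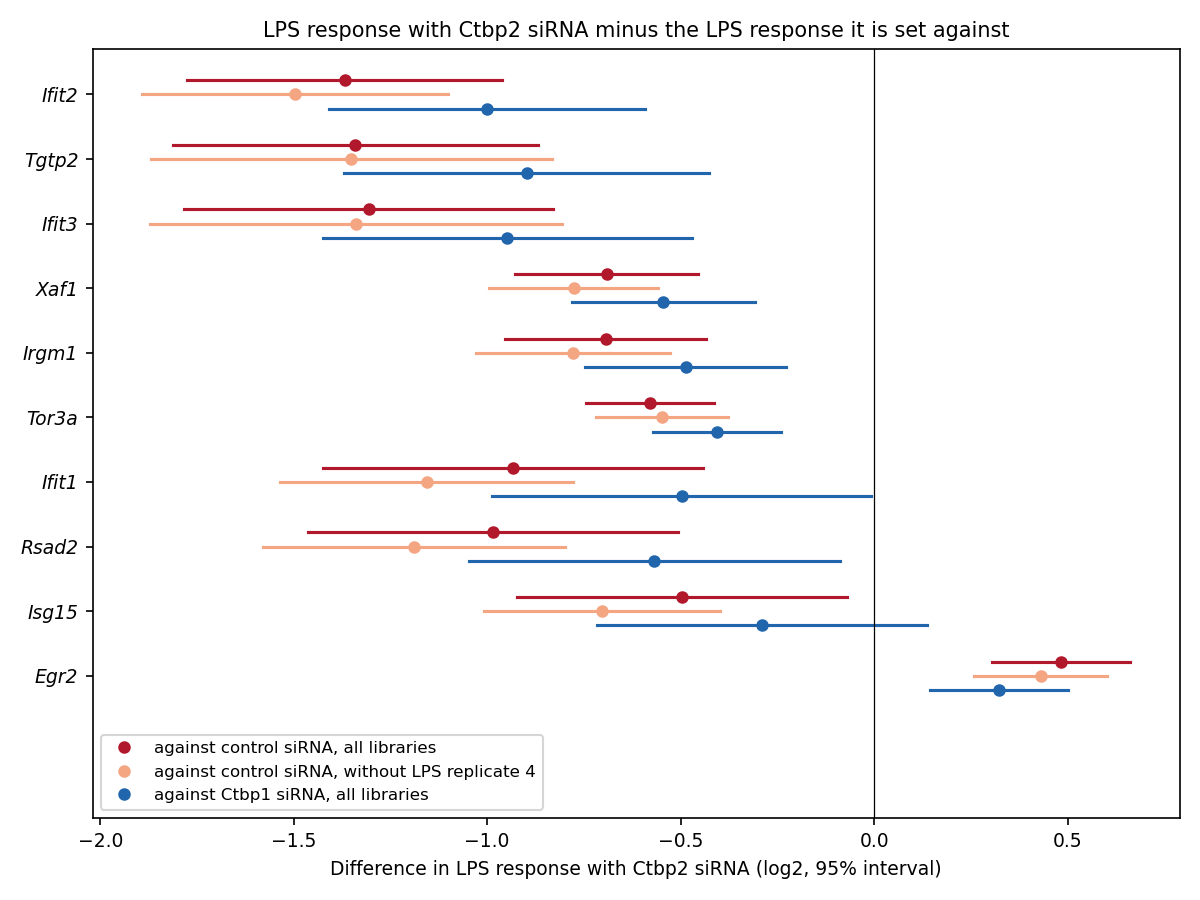
Interaction (log2) with its 95% interval for 10 genes, against control siRNA with all libraries, against control siRNA without control LPS replicate 4, and against Ctbp1 siRNA. Ifit2 stands at -1.37, -1.50 and -1.0, and Egr2 is the 1 gene to the right of 0, at 0.48, 0.43 and 0.32.

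Some other effects of Ctbp2 siRNA were called both at rest and in LPS, and these genes are chosen by both calls. Of the genes called in vehicle and in LPS, 29 were shared. These are 35.8% of the vehicle calls, where 3.17% of all tested genes were called in LPS. They are 11.6% of the LPS calls, where 1.02% of all tested genes were called in vehicle. The vehicle and LPS comparisons use no library in common. They share each gene's estimate of spread, so the calls are not independent. The siRNA target Ctbp2 is among the genes lower in both. Of the 29, 9 were higher in both, 20 were lower in both and 0 had opposite directions. Il1rn, the interleukin-1 receptor antagonist, was the example among cytokine genes. It was at 286, 381 and 276 TPM in LPS with Ctbp2 siRNA, against 190.3, 212 and 206 TPM with control siRNA. Its vehicle levels were 311, 379.7 and 290.0 TPM with Ctbp2 siRNA, against 208, 212 and 195 TPM with control siRNA. The groups were separate in both conditions, with effects of 0.62 in LPS (limma adjusted p = 0.00838) and 0.66 in vehicle (adjusted p = 0.0105) and an interaction of -0.05 ± 0.16 (95% interval -0.38 to 0.29).

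Ccl8, a monocyte-attracting chemokine, rose by 0.65 in LPS (limma adjusted p = 0.00948) and 0.67 in vehicle (adjusted p = 0.0152), with an interaction of -0.02 (95% interval -0.39 to 0.35). Serpinb9b, a granzyme B inhibitor family member, rose by 0.51 in both (interaction 0.01, 95% interval -0.26 to 0.27). Fgfr1, a growth factor receptor, rose by 0.53 in LPS and 0.48 in vehicle. The vehicle calls of Ccl8 and Fgfr1 were lost in 4 and 8 of 14 alternatives. The heat shock gene Hspa1b, which shares most of its sequence with Hspa1a so that their reads are hard to separate, rose by 0.75 in LPS (adjusted p = 0.000384) and 0.57 in vehicle (adjusted p = 0.00698). Cd28, best known as a T-cell co-stimulatory receptor, fell by 0.85 in LPS (adjusted p = 0.00141) and by 0.61 in vehicle (adjusted p = 0.0248), and averaged 5.35 ± 0.96 TPM with Ctbp2 siRNA against 10.4 ± 1.20 TPM with control siRNA in LPS (SD, n = 3). Its vehicle call was lost in 6 of 14 alternatives.

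Effects called in one condition need not differ between conditions. The 40 genes higher at rest had medians of 0.49 in vehicle, 0.10 in LPS and -0.25 for the interaction, and 27 of the 40 were still positive in LPS. The 41 lower at rest had medians of -0.31 in vehicle, -0.20 in LPS and 0.06 for the interaction. The 61 higher in LPS had medians of 0.33 in LPS, 0.10 in vehicle and 0.20 for the interaction, and the 190 lower in LPS had -0.31, -0.11 and -0.17. These sets were chosen on one of the values they are described by, which by itself pulls that value away from 0. Examples from LPS were Mt2, a metallothionein, with 0.65 in LPS (limma adjusted p = 0.00686) and an interaction of 0.48 that did not pass (adjusted p = 0.374), Lrp1, an endocytic receptor, with -0.47 (adjusted p = 0.0038), and the chemokine Ccl22, with 0.79 (adjusted p = 0.0489). The Ccl22 call was lost in 10 of 14 alternatives, and without control LPS replicate 4 its value was 0.46 (adjusted p = 0.136).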

How the data were processed

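Polyadenylated RNA from BMDMs was sequenced by the submitters. The authors deposited TPM per library, and the file headers name Salmon, gene-level scaled TPM and mm39. The tools listed in the submitters' processing notes are FastQC for read checks, Salmon 1.9.0 for quantification, and DESeq2 1.44.0 with R 4.4.1. The authors' deposited table also gives log2 fold changes, p-values and a signal column of mean normalized counts. Of these, only the log2 LPS responses of Tor3a and Egr2 are quoted here, and the authors' p-values and means entered no result. The J774.1 table was not used here. TPM keeps no depth. TPM sums were 999839 to 999944, and no libraries were identical.

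limma 3.58.1 in R 4.3.3 was run on log2(TPM + 1) with trend and robust estimation, on the 7918 of 22996 genes whose TPM averaged 10 or more. The fit took 18 libraries in 6 groups, and p-values were Benjamini-Hochberg adjusted over all genes tested, with calls under 0.05. Fold changes on this scale understate changes of low genes. LPS-induced (at least 2-fold) and strongly induced (at least 8-fold) genes came from Ctbp1 siRNA libraries. Alternatives were pseudocounts of 0.1 and 5 TPM, a minimum mean of 1 TPM, no filter, median-of-ratios scaling, the compared libraries alone, no trend, a replicate block and leaving out each library. Between the LPS groups with Ctbp2 and control siRNA, all 3 same-numbered pairs had deviations from their group means that correlated above 0.1 (r 0.103 to 0.192, over genes), so the block is given there. The labels do not say what a number marks. The procedure was tested on simulated data. Tables and figures used Python 3.11.15 with pandas 2.3.3 and matplotlib 3.10.9. Promoters are RefSeq GRCm38.p6, read by gene symbol, with no conversion between builds.

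The members and gene lists were chosen with earlier results of these data known. Genes named were Ctbp1 and Ctbp2, every called interaction gene and the smallest unadjusted p up to 8 in each direction, the 8 largest called effects per direction in vehicle and in LPS at a mean of at least 30 TPM, the 8 largest called in both, called list members and the 4 most abundant of each list, and the genes of largest LPS response. Predicted genes were counted and not named, and not every eligible gene is given. Other list members and genes called without control LPS replicate 4, such as Rtp4, Il6, Il12b, Il1a, Gbp5, Tap2, Adar, Trim25, Tbc1d19, Irf2bpl and Lrrc42, were chosen after their values were seen. Some items are not reported here.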

Additional observations from a re-analysis of the deposited data

Results flagged for a closer look

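For 8 genes the effect of Ctbp2 siRNA in LPS differed from its effect in vehicle, by the limma interaction test. The difference (LPS minus vehicle, log2) was -1.37 for Ifit2, -1.34 for Tgtp2, -1.31 for Ifit3, -0.69 for Irgm1, -0.69 for Xaf1, -0.58 for Tor3a and 0.48 for Egr2.

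The predicted gene Gm13464 had -0.65 (limma adjusted p = 0.0236). It falls outside the rule for named genes and was chosen after its values were seen. It averaged 20.2 against 24.4 TPM in LPS and 25.6 against 19.3 TPM in vehicle (Ctbp2 siRNA against control siRNA). Against Ctbp1 siRNA its interaction was -0.08. No function is annotated for it in the files used here, and the call was lost in 7 of 20 alternative settings.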

How the results depend on the processing

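The number of genes called for the interaction (8) was 4 with a minimum mean of 1 TPM, 0 with no filter (limma, 1435 at an unadjusted p under 0.05), 2 with median-of-ratios scaling, 3 without trend and robust estimation, 14 with a replicate block, and 1 to 38 with 1 library left out. The vehicle count (81) was 45 with no filter, 45 without trend, 185 with the replicate block and 21 to 52 with 1 library left out (21, 46 and 32 without Ctbp2 vehicle replicates 1, 3 and 4, and 22, 32 and 52 without those of the control). The LPS count (251) was 132 with no filter, 4 with the compared libraries alone, 457 with the replicate block and 107 to 315 with 1 library left out (107 and 124 without Ctbp2 LPS replicates 1 and 3, 161 without control LPS replicate 4). With no filter, LPS altered 43.6% of genes with Ctbp2 siRNA and 42.8% with control siRNA, over many more genes, and 4 genes were called against Ctbp1 siRNA. Median-of-ratios scaling moved the share of higher calls to 68.5% against 49.4% in vehicle and to 60.5% against 24.3% in LPS. With 1 library left out the median interaction ranged over -0.00188 to 0.0983 for induced, -0.130 to 0.0234 for repressed, -0.25 to 0.0777 for strongly repressed and 0.0278 to 0.225 for strongly induced genes, with the value nearest or past 0 in each class without control LPS replicate 4. The causes were not tested. The interferon-list median was -0.53 to -0.40. Over all pairs of groups, r of same-numbered libraries was -0.15 to 0.19. In vehicle, between Ctbp2 and control siRNA, it was -0.035 to 0.115. Between control LPS and control vehicle it was 0.096 to 0.16, above the differently numbered pairs (-0.143 to -0.014). Between Ctbp2 vehicle and control LPS it was 0.060 to 0.113, again above the others (-0.075 to 0.008). Whether numbers mark pairs was thus not settled, and the block stayed an alternative for the interaction and vehicle. No called interaction or siRNA effect changed sign after median-of-ratios scaling. Of the LPS responses called, 530 of 6230 with Ctbp2 siRNA and 351 of 6053 with control siRNA did, and 67 and 31 of these were called there too.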
